A study of Mus musculus with 2 samples.

Results

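The 9 complement genes described here were chosen by symbol among the 32285 genes of the expression matrix, and all 9 were present: C1qa, C1qb, C1qc, C3ar1, C5ar1, Cfp, C3, Cfb and C4b. The cells came from 1 wild-type sample, islets of Langerhans pooled from 6 to 8 male C57BL/6J mice, from which live (DAPI-) Epcam- CD45+ cells were sorted. The sample was read as an mRNA library and a library of barcoded antibodies. Antibodies against CD9, a tetraspanin, and CD206, the mannose receptor, appear in the extraction protocol, whereas the design text gives CD9 alone and calls the mice myeloid WT. No mouse, day, treatment or other genotype can be compared, so intervals cover nothing but the error of counting, and no test or p-value was computed.

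Complement is a cascade of plasma and cell-surface proteins that marks targets, recruits phagocytes and can lyse membranes. C1q, built from the chains that C1qa, C1qb and C1qc encode, recognises bound antibody and dying cells and starts the classical pathway, C4 carries that pathway on, and C3 is the component on which all pathways converge. Factor B (Cfb) and properdin (Cfp) form and stabilise the convertase of the alternative pathway, and C3ar1 and C5ar1 are receptors for the fragments released from C3 and C5. Tissue macrophages are a known source of C1q, whereas most circulating complement comes from the liver.

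Of 2237 barcodes, 2176 cells were kept, and clusters were made with the complement genes left out. Macrophages were the 1592 cells with at least 10 unique molecular identifiers (UMIs) over Adgre1 (F4/80), Csf1r and Cd68 that lay in no cluster named as another type, and 118 kept cells held 8 to 11 such UMIs, close to that limit. Lymphocytes (148 cells: 111 T/NK-like, 29 B-like and 8 ILC-like), dendritic-like cells (70) and monocyte-like cells (17) were clusters named from marker genes. Median depth was 21071 RNA UMIs per macrophage, 9372 per lymphocyte, 27164.5 per dendritic-like cell and 14250 per monocyte-like cell. The CD45+ label did not hold for every cell, since 45 endocrine-like and 13 endothelial-like cells were kept in the matrix. The macrophage label was checked on 7 markers that the rule did not use, such as Ms4a7 and Mertk: their median level in lymphocytes was 2.11% of that in macrophages, and in dendritic-like and monocyte-like cells 26.3% and 24.6%. Levels are summed UMIs of a gene per 1000000 RNA UMIs of the class (CPM), and they are compared between cell classes, not between genes.

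C1qb, C1qc and C1qa lie side by side on chromosome 4 (GRCm38, positions 136880126 to 136886200, 136889801 to 136892936 and 136895916 to 136898844), within 18719 bases that hold no other annotated gene. Their promoters are shown because these genes went together from cell to cell. RefSeq promoters of GRCm38.p6, running from 250 bases before to 50 after the gene start, were at hand for 6 of the 9 members, C1qb, C1qc, C3, C3ar1, C5ar1 and Cfp, and not for C1qa, Cfb and C4b. Each is written 5′ to 3′ on the gene's own strand, here the minus strand, with the letters GAGGAA (the core of sites for ETS factors such as PU.1) in capitals, or TTCCTC where the match is on the opposite strand.
C1qb, chr4:136886151-136886450: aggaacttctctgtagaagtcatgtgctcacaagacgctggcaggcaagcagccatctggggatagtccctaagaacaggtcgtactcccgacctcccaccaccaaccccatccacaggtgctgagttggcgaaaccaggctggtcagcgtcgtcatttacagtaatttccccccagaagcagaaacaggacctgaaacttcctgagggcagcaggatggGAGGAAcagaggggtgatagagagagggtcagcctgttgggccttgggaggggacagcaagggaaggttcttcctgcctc
C1qc, chr4:136892865-136893164: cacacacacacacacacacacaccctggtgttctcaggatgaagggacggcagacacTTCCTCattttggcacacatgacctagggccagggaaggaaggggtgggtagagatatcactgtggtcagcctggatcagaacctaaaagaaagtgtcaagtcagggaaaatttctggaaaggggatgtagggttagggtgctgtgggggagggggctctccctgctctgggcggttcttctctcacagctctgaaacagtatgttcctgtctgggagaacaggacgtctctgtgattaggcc
Both hold GAGGAA 1 time, beginning 30 bases before the C1qb start and 193 bases before the C1qc start, the latter on the opposite strand. These letters occur in 28.3% of the 32851 promoters of that length. Every motif was searched on both strands. The NF-kB motif, found in 20.7% of promoters, occurs 2 times at C1qb (overlapping matches on opposite strands), 1 time at C1qc and 3 times at C3, and is absent from the windows of C3ar1, C5ar1 and Cfp.
The Cfp promoter is shown because Cfp had another distribution over the cell classes.
Cfp, chrX:20931506-20931805: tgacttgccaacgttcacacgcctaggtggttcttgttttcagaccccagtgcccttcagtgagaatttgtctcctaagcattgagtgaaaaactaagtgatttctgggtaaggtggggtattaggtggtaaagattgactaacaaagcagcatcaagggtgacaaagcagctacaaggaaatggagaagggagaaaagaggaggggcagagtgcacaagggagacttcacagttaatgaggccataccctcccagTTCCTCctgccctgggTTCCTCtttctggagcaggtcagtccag
It holds the GAGGAA letters 2 times, both on the opposite strand and after the gene start. The interferon-stimulated response element (3.44% of promoters) and the STAT motif TTCNNNGAA (8.30%) are in none of the 6 windows. A match is a description of letters, not a site in use.

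The 3 C1q genes were at high levels in nearly every macrophage. C1qa (ENSMUSG00000036887) stood at 2555 CPM in macrophages (88993 UMIs) and had a UMI in 99.6% of them, with a median of 51 UMIs per cell. C1qb (ENSMUSG00000036905) stood at 2728 CPM with a median of 55 UMIs per cell, and C1qc (ENSMUSG00000036896) at 1741 CPM with a median of 35. Summed over the 3 genes, all 1592 macrophages had at least 1 UMI, the median was 142 per cell and the richest cell held 814. No macrophage was thus without a C1q UMI, although 14 of the 1592 lay under 10 C1q UMIs per 10000 RNA UMIs, against a median of 68.2.

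Lymphocytes give the level that RNA from outside the cell can add, since they are not known to make C1q. In lymphocytes C1qa was at 65.5 CPM (97 UMIs), C1qb at 72.2 and C1qc at 51.3, and 63 of the 148 cells had any C1q UMI. T/NK-like cells had a C1q sum of 233 CPM (205 to 264) and B-like cells of 57.2 CPM (33.9 to 90.4), so this level was not the same in both. The macrophage level was 39.0 times the lymphocyte level for C1qa (95% interval 32.0 to 48.1), 37.8 times for C1qb and 33.9 times for C1qc. The T/NK-like cell at 37.7 per 10000, with 30000 RNA UMIs, held 113 of the 280 lymphocyte C1q UMIs (40.4%). It also held 10 of 17 C3ar1 and 19 of 22 C5ar1 UMIs.

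The summed C1q level of lymphocytes was 2.69% of that of macrophages (2.38 to 3.02%), and 1.64% without that cell. Over 10 other macrophage genes, among them Apoe, Lyz2, Cd14 and Hmox1, the same percentage ran from 0.812 to 3.93 with a median of 2.25, and from 0.790 to 3.43 with a median of 1.52 without that cell. C1q therefore lay within the range of the other macrophage genes with and without it. With each cell thinned to 5000 UMIs, 27.1% of 133 lymphocytes still had a C1q UMI (42.6% unthinned; 15 shallower cells left out), against 99.8% of 1588 macrophages (4 left out).

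The make-up of the C1q pool was close in macrophages, lymphocytes and the dendritic-like cluster as a whole. C1qa gave 36.4% of C1q UMIs in macrophages, C1qb 38.8% and C1qc 24.8%. In lymphocytes the shares were 34.6% (29.1 to 40.5%), 38.2% and 27.1%, and in dendritic-like cells 35.4%, 38.9% and 25.7%. The lymphocyte shares rest in part on 1 cell with 113 of the 280 UMIs. The dendritic-like shares describe mainly 20 cells that carried macrophage genes. In those 20 cells C1qa, C1qb and C1qc had 1882, 2083 and 1372 UMIs, against 42, 34 and 27 in the other 50. Endocrine-like cells stood somewhat apart, with a C1qa share of 43.2% (38.3 to 48.3%) of 400 UMIs, as did 14 C1q-low macrophages described below.

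The fragment receptors were also higher in macrophages than in lymphocytes. C3ar1 (ENSMUSG00000040552, chromosome 6, 122847140 to 122856157) was at 431 CPM with a UMI in 98.3% of macrophages and a median of 8 per cell, against 11.5 CPM in lymphocytes, a ratio of 37.5 (23.4 to 64.4). C5ar1 (ENSMUSG00000049130, chromosome 7, 16246743 to 16259540) was at 298 CPM with a UMI in 88.4% of macrophages and a median of 4 per cell, against 14.8 CPM in lymphocytes, a ratio of 20.1 (13.2 to 32.0). Without the lymphocyte named above, C5ar1 in lymphocytes rested on 3 UMIs and C3ar1 on 7. Their lymphocyte levels were then 0.694% and 1.12% of those of macrophages.

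Of the 8 members with at least 20 UMIs over macrophages and lymphocytes, 6 were at least 1.5-fold higher in macrophages and 0 were lower. Over the 13059 genes tested, 19.4% were higher and 49.4% lower by that rule. The members' median log2 ratio was 5.16, or 4.71 with sums of 0 set to the limit of 3 counts, and that of all genes -0.69. Besides C1q and the receptors, the sixth was C3 (ENSMUSG00000024164, chromosome 17, 57203967 to 57228136). C3 was at 9.16 CPM in macrophages, 159 of 1592 cells, and at 0 UMIs in lymphocytes, so it was at least 4.52-fold higher given the 3 counts per 1481613 lymphocyte UMIs that a count of 0 allows. The plot of levels by cell class gives all 9 members.

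**Figure D1:**
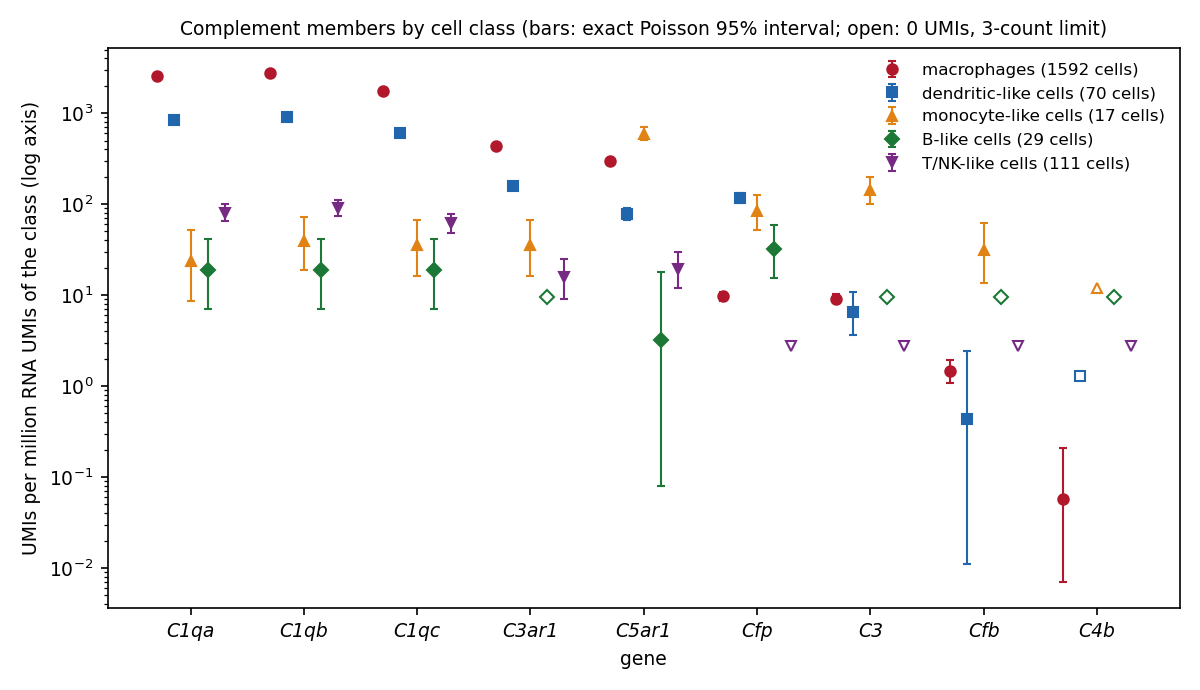
CPM (log axis) of the 9 members in 5 cell classes, with exact Poisson 95% intervals for counting error; an open symbol marks 0 UMIs and stands at the limit that 3 counts allow. The C1q genes and C3ar1 are highest in macrophages, C5ar1 and C3 in monocyte-like cells, and Cfp in dendritic-like and monocyte-like cells.

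Properdin (Cfp, ENSMUSG00000001128, chromosome X, 20925454 to 20931555) was not a macrophage-rich gene in these islets. Dendritic-like cells had 117 CPM (104 to 132; 47 of 70 cells), monocyte-like cells 82.9 CPM (51.3 to 127; 7 of 17 cells, 10 of its 21 UMIs in 1 cell), B-like cells 31.8 CPM (15.2 to 58.5; 10 UMIs in 4 of 29 cells) and macrophages 9.67 CPM (8.67 to 10.8; 152 of 1592 cells). The dendritic-like and monocyte-like levels cannot be put in order (ratio 1.41, 0.905 to 2.32), while the monocyte-like level was 2.61 times the B-like level (1.18 to 6.21) and the B-like level 3.29 times that of macrophages (1.56 to 6.12). T/NK-like cells had 0 UMIs of 1081058, which allows up to 2.78 CPM. Because all 10 lymphocyte UMIs were in B-like cells, the ratio of macrophages to all lymphocytes, 1.43 (0.770 to 3.02), does not describe either kind of lymphocyte: against B-like cells alone the log2 ratio was -1.72.

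Against dendritic-like cells, which capture and present antigen, 6 of 8 members tested were at least 1.5-fold higher in macrophages and 1 was lower, with 17.9% and 26.9% of 12878 genes doing so. Of the 70 cells in that cluster, 20 carried macrophage genes near macrophage levels, so these ratios describe a mixed cluster. C1qa was at 831 CPM in dendritic-like cells, C1qb at 914 and C1qc at 604, so that macrophages were 3.07, 2.98 and 2.88 times higher. The macrophage level of C3ar1 was 2.71 times, and that of C5ar1 3.85 times, the dendritic-like level of 159 and 77.3 CPM. Cfp was the lower one: dendritic-like cells had 12.1 times the macrophage level, a macrophage to dendritic ratio of 0.0826 (0.0702 to 0.0973). C3 differed by less than 1.5-fold (9.16 against 6.48 CPM), and Cfb, the sixth called higher, rested on 1 UMI in dendritic-like cells, with a ratio of 3.39 and an interval from 0.582 to 136.

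Against lymphocytes, dendritic-like cells were higher in 6 of 6 members tested and lower in 0, with 21.1% and 40.5% of 9810 genes doing so. In the 50 cells of the cluster low in C1q, C1qa was at 30.6 CPM, C1qb at 24.7 and C1qc at 19.6, values that chose these cells. The lymphocyte levels were 65.5, 72.2 and 51.3 CPM. C5ar1 was at 5.09 CPM in the 50 cells, against 14.8 in lymphocytes and 2.07 without the lymphocyte richest in C1q. C3ar1 was at 15.3 CPM, against 11.5 and 4.82, and Cfp at 152 CPM, against 6.75 in lymphocytes.

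These dendritic-like averages joined cells of unlike C1q content. Among the 70 cells, 50 had under 10 C1q UMIs per 10000 and 20 had more, and the median of 1.02 per 10000 lay far below the class mean. In the 20 cells C1qa, C1qb and C1qc were at 2001, 2215 and 1459 CPM, near the macrophage levels, but C1q itself chose these cells. The plot of C1q in single cells shows the gap between these sets of dendritic-like cells.

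Other genes split with C1q. Markers fixed for macrophages summed to 492 CPM in the 50 cells, with Mertk at 0, against 8992 in the 20 and 14240 in macrophages, and 10 of 10 markers were higher in the 20. The dendritic-cell markers summed to 2256 CPM in the 50, 468 in the 20 and 106 in macrophages. Zbtb46, a dendritic-cell transcription factor, was at 186 CPM in the 50 cells and 12.8 in the 20, and Flt3, the receptor for the dendritic growth factor, at 155 and 29.8. The cycling markers summed to 614 and 1322 CPM, and the median RNA depth was 24259.5 and 38008.5 UMIs. The 20 cells thus carried markers of both lists, with a higher macrophage-marker sum than the 50 and a higher dendritic-marker sum than macrophages. The part of doublets, depth and the cell cycle in this split was not tested.

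The receptors split in the same direction and Cfp in the other. C3ar1 was at 15.3 CPM in the 50 cells and 369 in the 20, and C5ar1 at 5.09 and 183, while Cfp was at 152 and 65.9. With dendritic-like cells limited to the 42 that held under 10 UMIs of the 3 macrophage genes, which does not use C1q, the macrophage to dendritic log2 ratio rose from 1.62 to 5.99 for C1qa, from 1.58 to 6.38 for C1qb, from 1.53 to 5.77 for C1qc, from 1.44 to 4.59 for C3ar1 and from 1.95 to 5.73 for C5ar1. Of those 42 cells, 41 lay under 10 C1q UMIs per 10000, as did 9 of the other 28.

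The small monocyte-like cluster carried another set of complement genes, a comparison added after the values had been seen. It was led by S100a9, S100a8, Plac8 and Chil3, of which the first pair also stands on the neutrophil list. C5ar1 was at 592 CPM (501 to 695) with a UMI in all 17 cells, and the macrophage level was 0.503 of this (0.428 to 0.595). C3 was at 142 CPM (36 UMIs in 12 cells), 15.5 times the macrophage level. Cfb, at 31.6 CPM, rested on 8 UMIs in 3 cells.

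The same 17 cells were low for the genes that marked macrophages. C1qa was at 23.7 CPM (6 UMIs), C1qb at 39.5 and C1qc at 35.5, and every cell lay under 10 C1q UMIs per 10000. C3ar1 had 9 UMIs, 6 of them in 1 cell, for 35.5 CPM, so that macrophages were 12.1 times higher (6.38 to 26.5). In all, 4 of 8 members were higher in macrophages and 4 higher in monocyte-like cells, against 16.3% and 26.9% of 12656 genes.

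C3, Cfb and C4b were sparse, and 2 cells outside every comparison held 10 of the 13 C4b UMIs. Cfb (ENSMUSG00000090231, chromosome 17, 34856374 to 34862514) had 51 UMIs in 31 macrophages, 1.46 CPM. C4b (ENSMUSG00000073418, chromosome 17, 34728139 to 34743902) had 2 UMIs in the 1592 macrophages and 13 in all kept cells. Reads of C4b can be shared with its near-identical neighbour C4a, which the annotation calls a transcribed pseudogene and which had 7 UMIs in macrophages, so the C4b count is uncertain.

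Those 2 cells fell in a macrophage-like cluster but had 0 UMIs of Adgre1, Csf1r and Cd68, and so were left out of the macrophages. They held 38 and 25 of the 454 C3 UMIs of all kept cells, 1 and 8 of the 72 Cfb UMIs and 4 and 6 of the 13 C4b UMIs. Markers fixed for fibroblasts or pericytes (such as Col1a1 and Dcn) reached 479 and 203 UMIs in them, and C1q 3 UMIs each. By comparison, the richest macrophage for C3 held 19 UMIs and had 169 of C1q and 2 of the fibroblast markers.

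The spread of each member among macrophages was measured at equal depth. Thinned to 5000 UMIs, a macrophage held on average 35.2 C1q UMIs, with a 10th percentile of 17, a median of 34, a 90th percentile of 55 and a largest value of 107. The coefficient of variation was 0.421 for the C1q sum, 0.519 for C1qa, 0.440 for C1qb, 0.549 for C1qc, 0.881 for C3ar1 and 1.23 for C5ar1, part of which is counting noise that grows as the mean falls. The Fano factor (variance over mean) allows for that. It was 2.33 for C5ar1 beside a median of 1.52 over 455 genes of like mean, 3.48 beside 2.66 for C1qa and 2.62 beside 2.16 for C1qc. C3ar1, at 1.74 beside 1.69, was close to genes of like mean, and C1qb, at 2.63 beside 3.26, lay below them. C3 (1.62) and Cfp (1.64) stood above genes of like mean (1.07 for both), so their few UMIs were gathered in fewer cells than those of most genes of that level.

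From cell to cell the C1q genes went together, and the receptors did not go with them. Pearson's r of log-normalised levels over 1592 macrophages was 0.81 for each of the 3 C1q pairs and 0.59 to 0.64 after thinning 1588 cells to equal depth. C1q genes and C3ar1 had r of at most 0.10, and C1q genes and C5ar1 of at most 0.05. C3ar1 and C5ar1, both anaphylatoxin receptors, had r = 0.17, and 0.08 after thinning. These cells share 1 library, and weak values in counts this sparse are no finding.

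Outside the members, the 3 of 8273 genes most like C1qa in this sense included Itm2b (r = 0.54) and Ctss (0.50), the protease cathepsin S. Itm2b was also the nearest to C1qb (0.49) and to C1qc (0.56). For C5ar1 they were Ptprj, Sdc4 and Ifih1, an RNA sensor induced by interferon, each at r = 0.34, and for C3ar1 Blnk (0.30), Mbnl2 (0.29) and Cdk6 (0.27). At equal depth Ifih1 (0.27) and Blnk (0.18) ranked 1st, while Ptprj fell to rank 11 (0.21), Sdc4 to 8 (0.22) and Mbnl2 to 19 (0.13). Itm2b then stood at rank 4 for each C1q gene, with members counted. Ctss came before it for C1qa (0.43 against 0.37) and for C1qb (0.41 against 0.33). The other members had a UMI in under 20% of macrophages and were not ranked. Cfb and C3 were detected together in 12 of the 31 Cfb-positive macrophages (38.7%, against 9.99% of all macrophages with C3). Their r was 0.21, and 0.06 after thinning.

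The 14 macrophages low in C1q were not low in every macrophage gene. They had a median of 20079 RNA UMIs, and 10 of them lay in cluster 5, described below. Their C1qa level was 46.1 CPM, C1qb 201 and C1qc 125, values that chose these cells. Their C1q make-up, which did not choose them, also differed: C1qa gave 12.4% of 113 C1q UMIs (6.94 to 19.9%), against 36.4% in the other 1578 macrophages. Lyz2 was at 1580 CPM in them, against 1402, whereas C3ar1 was at 171 against 433, with a UMI in 14 of 14 cells. Apoe was at 2578 against 9023 CPM, and Ccr2, a chemokine receptor of monocytes, at 244 against 29.1 (10 of 14 cells). The macrophage markers summed to 5880 CPM against 14314 and the 6 monocyte markers to 313 against 35.1. Of the 313 CPM, Ccr2 alone gave 244. Ly6c2, Plac8, Chil3 and F13a1 each had a UMI in 1 of the 14 cells, and Vcan had 0 UMIs. The 14 dendritic-cell markers summed to 250 against 105 CPM, with 3 of the 14 at 0 and Cd209a at 62.6 (4 of 14 cells) against 0.782. The part of monocyte and dendritic-cell RNA in these cells was not tested.

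The 9 macrophage clusters differed little in C1q and C3ar1 and more in the other members. C1qa ran from 2033 CPM in cluster 4, led by the heat-shock genes Hspa1b and Hspa1a, to 3582 in cluster 12 (23 cells). C1qb ran from 2342 to 3560, C1qc from 1428 to 2479 and C3ar1 from 352 to 578 CPM, and in no cluster did any of these 4 genes reach a 1.5-fold difference from the other clusters. C5ar1, C3, Cfp and Cfb did so in at least 1 cluster each. The share of 12607 genes that was higher by this rule was 8.56% in cluster 0, 8.16% in 1, 6.51% in 2, 24.6% in 3, 16.6% in 4, 20.2% in 5, 5.66% in 6, 11.9% in 11 and 23.5% in 12. The share lower was 22.9% in cluster 0, 16.3% in 1, 28.5% in 2, 14.9% in 3, 30.9% in 4, 14.4% in 5, 18.2% in 6, 17.7% in 11 and 24.6% in 12.

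C5ar1 was highest in cluster 0, led by the interferon-response genes Ifit3 and Cmpk2, at 423 CPM, 1.59 times the level in the other clusters (1.53 to 1.66). It was lowest in clusters 12 (126 CPM), 4 (153 CPM) and 5 (205 CPM). With cells thinned to 5000 UMIs, cluster 0 had the highest share of cells with a C5ar1 UMI (74.8%), and clusters 4 (43.1%), 12 (43.5%) and 5 (51.0%) the lowest.

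Cluster 5, led by Pltp, Mefv, Anxa1 and Spp1, stood apart for the alternative-pathway genes and C3. Cfp was at 41.5 CPM there, 7.14 times the level elsewhere (5.72 to 8.90), in 40 of 155 cells, and 29.7% of its UMIs came from 1 cell. C3 was at 24.1 CPM, 3.27 times (2.53 to 4.19), also in 40 cells. Cfb was at 5.36 CPM, 5.35 times (2.89 to 9.69), but on 20 UMIs in 10 cells, 8 of them in 1 cell. In this cluster 3 of 8 members were higher and 1 (C5ar1) lower, with 20.2% and 14.4% of all genes doing so.

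Cluster 0 shared part of that pattern. C3 was at 18.7 CPM there, 2.81 times the level elsewhere (2.24 to 3.53), and Cfb at 2.88 CPM, 2.63 times (1.43 to 4.76), while Cfp was at 9.75 CPM there and 9.63 in the other clusters. Here 3 of 8 members were higher, C5ar1, C3 and Cfb, against 8.56% of all genes. At the other end, cluster 1, led by Slc40a1 and Cd36, had C3 and Cfp at 2.02 CPM each and no Cfb UMI. Cluster 12 passed the limit for Cfp on 5 UMIs, with a ratio of 1.64 and an interval from 0.528 to 3.86. In all, C3 was lower in 6 clusters and Cfp and Cfb in 5 each. For C3 and Cfb the clusters they were set against included 0 and 5, where both genes were high. Some of these calls rest on few UMIs, such as Cfb in cluster 2 (4 UMIs), with an interval from 0.116 to 1.22.

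**Figure D2:**
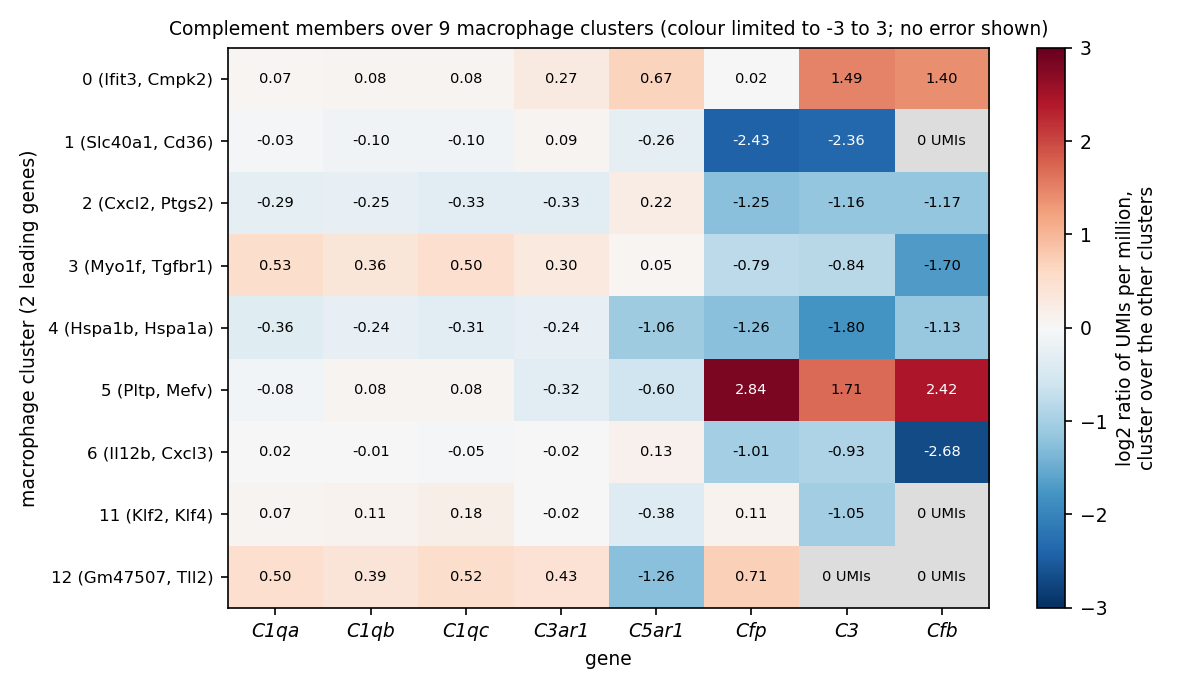
Log2 ratio of CPM between each of 9 macrophage clusters (rows, with their leading genes) and the other clusters for 8 members; grey cells had 0 UMIs. The C1q genes and C3ar1 stay within 0.53 of 0, whereas Cfp, C3 and Cfb are high in cluster 5 and C3, Cfb and C5ar1 in cluster 0.

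The members also differed along surface CD9. CD9 antibody UMIs were ranked in macrophages of like RNA depth (10 bins), and the highest and lowest tercile (530 cells each, a mean of 4281 and 134 CD9 UMIs) were compared. Their median RNA depths were 21080.5 and 21084.5 UMIs. A tercile is a range, not a cell type, and 320 cells (20.1%) ranked no more than 5 percentage points from a boundary.

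C1q was nearly level over CD9. C1qa was at 2647 CPM in the high and 2537 in the low tercile, a ratio of 1.04 (1.03 to 1.06), C1qb had a ratio of 1.13 and C1qc of 1.10. C3 was at 14.6 and 5.88 CPM, a ratio of 2.48 (1.86 to 3.34), and Cfp at 10.3 and 4.56 CPM, a ratio of 2.26 (1.62 to 3.19). With cells divided at the median of CD9 instead, the Cfp log2 ratio fell from 1.18 to 0.26, under the limit. The receptors were lower where CD9 was high: C5ar1 was at 252 and 362 CPM, a ratio of 0.696 (0.664 to 0.730), and C3ar1 at 383 and 472 CPM, a ratio of 0.811 (0.780 to 0.844). Both differences are larger than counting error but smaller than 1.5-fold.

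By the 1.5-fold rule 3 of 8 members were higher with CD9, C3, Cfp and Cfb, and 0 lower, with 10.6% and 5.56% of 11817 genes doing so. The Cfb ratio of 1.71 has an interval that holds 1 (0.853 to 3.55). By decile of CD9, C5ar1 went from 371 CPM in the lowest to 252 in the highest and C3 from 4.39 to 18.9, most of the C3 difference lying in the top 2 deciles, at 18.0 and 18.9 CPM. Cfp was not graded, with 1.76 CPM in the lowest decile, 23.1 in the fourth, where 1 cell held 46 of the 80 UMIs, and 13.9 in the highest.

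**Figure D3:**
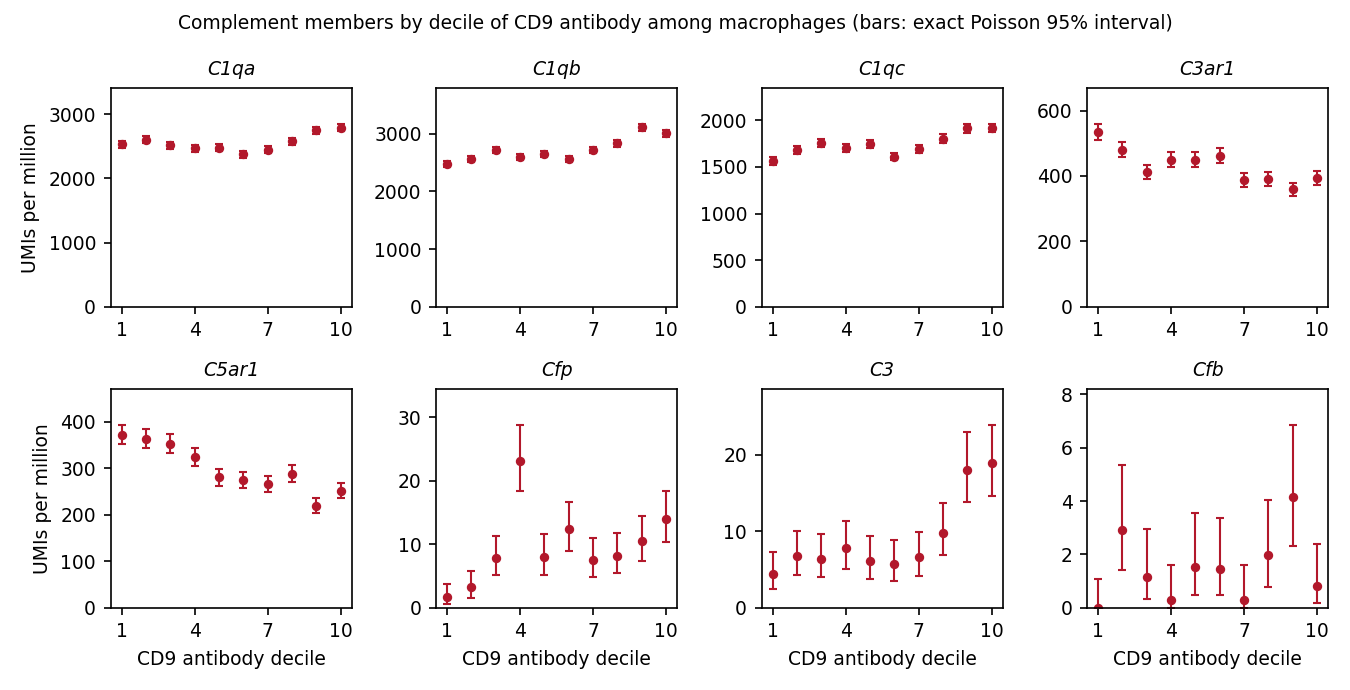
CPM of 8 members in 10 ranges of CD9 antibody among macrophages (152 to 160 cells each), ranked within RNA depth (1 is lowest), with exact Poisson 95% intervals; each axis starts at 0. C1q changes little, C5ar1 is lower at high CD9 (371 to 252) and C3 is high in the top 2 deciles.

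Cluster 5 was rich in CD9, with 63.9% of its cells in the high and 6.45% in the low tercile. Outside cluster 5, with the same terciles, the ratio was 2.41 for C3 (1.74 to 3.36), 2.18 for Cfp (1.48 to 3.25) and 0.728 for C5ar1 (0.693 to 0.766), so these differences were of like size without it. Cfb there rested on 15 and 4 UMIs. Inside cluster 5 the 10 cells of the low tercile had C3 at 43.8 CPM and the 99 of the high tercile at 23.7, a ratio of 0.541 whose interval (0.274 to 1.19) holds 1. There the direction turned for Cfp (0.427, 0.212 to 0.950) and Cfb (0.0949, 0.0354 to 0.254), each on 10 UMIs in the low tercile.

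Of the members, CD206 separated only Cfp by the 1.5-fold rule, and that result rested on cluster 5. The CD206 terciles had means of 67.0 and 3.04 antibody UMIs, a far weaker signal than CD9. Ratios were 0.953 for C1qa, 1.03 for C1qb, 1.02 for C1qc, 0.892 for C3ar1, 0.978 for C5ar1 (0.933 to 1.02) and 1.37 for C3 (1.06 to 1.78). Cfp was at 16.4 and 5.86 CPM, a ratio of 2.79 (2.10 to 3.74). This was 1 of 8 members past 1.5-fold, against 7.13% of 11915 genes higher and 4.46% lower. Outside cluster 5, which held 58.7% of its cells in the high tercile, the Cfp ratio was 1.36 (0.939 to 1.98), under the limit.

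The other complement genes were mostly scarce. Of 48 listed by role, 16 had at least 100 UMIs over all kept cells and 6 had none. All 7 listed components of the terminal pathway, which forms the membrane pore, were under 100 UMIs, as were all 8 of the lectin pathway. Macrophages were at least 1.5-fold higher than lymphocytes in 9 of the 20 listed genes that could be tested and lower in 4, against the 19.4% and 49.4% of all genes. Among the higher were C5ar2, the other C5a receptor, Lair1, an inhibitory receptor that binds C1q (25.6-fold), and Itgax, a subunit of complement receptor CR4 (8.45-fold). C5ar2 was at 8.27 CPM against 0 UMIs, 4.08-fold with the 0 set to 3 counts and with an interval that starts at 3.30.

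Among the named regulators, Cd55, Cr1l and Cd46 were lower in macrophages and Clu was not called. Cd55, which speeds decay of the convertases, was at 0.172 CPM in macrophages and 107 in lymphocytes, a ratio of 0.00161. Cr1l (Crry), the broadly expressed rodent regulator, was at 69.4 and 119 CPM, a ratio of 0.581 (0.498 to 0.680). Cd46 was at 4.31 and 8.10 CPM, with an interval (0.296 to 1.05) that holds 1. With CD9, 3 of 13 tested were higher and 3 lower, against 10.6% and 5.56% of all genes. Itgam, the CR3 subunit CD11b, was 3.08-fold, Cd93 2.79-fold and Lrp1 2.25-fold higher, while Cd46, among the lower, had a ratio of 0.522. These 4 genes went the same way with CD206, at ratios of 1.84, 2.28, 1.55 and 0.503. With CD206, 6 of 16 tested were higher and 2 lower, against 7.13% and 4.46% of all genes.

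Shallow cells also carried C1q. The unnamed cluster, led by AY036118, Cmss1 and the mitochondrial genes mt-Cytb and mt-Nd3 and with a median of 2624 RNA UMIs in its 145 cells under the macrophage limit, had a C1q sum of 9463 CPM, against 7024 in macrophages. That cluster met 8 of the 10 macrophage markers and stayed unnamed for its low depth and leading genes. In its 145 cells C3ar1 was at 222 CPM and C5ar1 at 209 CPM, below 431 and 298 in macrophages. The 146 macrophage-like cells under the limit went the other way for C1q, with a sum of 3916 CPM, a median of 19.3 C1q UMIs per 10000 and 49 of 146 cells under 10. Their C3ar1 and C5ar1 levels were 395 and 274 CPM. All these cells entered no comparison, and the part of RNA quality in these levels was not tested.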

How the data were processed

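Islet CD45+ cells of 1 pooled sample were analysed from 1 matrix. Its values are deposited counts of UMIs per gene and barcode. The authors ran Cell Ranger 8.0.1 (per the file headers) on mm10 (per the submitters' processing notes). How barcodes were kept was not given in the sources used here. Barcodes held 19352 RNA UMIs at the median, with quartiles of 13191 and 24852.

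Cells passed with 200 or more genes and no more than 10% of UMIs from mitochondria (2215). Scrublet's automatic limit marked 7 (0.316%, under the 0.5% taken as working), so the top-scoring 39 were removed. Scanpy 1.11.5 and leidenalg 0.10.2 gave 17 clusters (2000 variable genes, 30 components, 15 neighbours, resolution 1) without the complement genes, Cd9 and Mrc1. A cluster name, always to be read as "X-like", needed at least 3 listed markers. A cluster stayed unnamed where 3 times its median depth was under that of all kept cells and no leading gene was a marker of the name. The unnamed cluster fell under this rule, although it met 8 macrophage markers. Cells past the 10-UMI limit in clusters of another name (28 dendritic, 13 monocyte, 3 endocrine) were left out of the macrophages; 19 of the unnamed cluster were kept.

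Levels are CPM of summed UMIs, without strand or length correction. Ratios carry exact conditional binomial, levels exact Poisson and shares Clopper-Pearson 95% intervals, checked on simulated data. A call was a ratio of at least 1.5 among genes with at least 20 UMIs in both sums together, a sum of 0 being set to 3 counts. All 9 members are named, and other complement genes from 100 UMIs. The members and lists were chosen with earlier results of these data known. No replicate exists, so no test was made. RNA and antibody counts lie in 1 matrix under the same barcodes, so there is no other set of cells with which barcodes could be shared. Results on some genes are not reported here.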

Additional observations from a re-analysis of the deposited data

How the results depend on the processing

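No called ratio of a member changed sign under the alternatives run, and of those not called Cfp against lymphocytes (with B-like cells alone), C5ar1 and Cfb with CD206, and C4b with CD9 did. Of 404 alternative log2 ratios of single members, 304 stayed inside the main interval and 100 moved outside it. With CD206 the count of members past 1.5-fold was 1, and it became 2 with at least 20 macrophage UMIs, 2 without doublet removal, 3 between the highest and lowest 20%, 3 by raw antibody UMIs and 2 without each member's richest cell. With CD9 the count of 3 became 1 between cells above and below the median, where the Cfp log2 ratio was 0.26 against 1.18. Counts against lymphocytes and dendritic-like cells stayed between 5 and 7 (6 in the report), and over clusters between 4 and 5. The lymphocyte C1q percentage of 2.69 became 1.64 without the lymphocyte richest in C1q. The coefficient of variation of C1q, 0.421, became 0.480 at 2000 UMIs and 0.536 without thinning, where it includes differences in depth. Leaving out each member's richest cell, dropping macrophage-gene-rich dendritic-like cells and leaving out cluster 5 were chosen after seeing the data. Comparing NK cells alone was not run, as they formed no cluster of their own. No paired analysis was possible because there is 1 sample. Depth limits C3, Cfb, C4b and Cfp most: a lymphocyte level under 2.02 CPM could not be told from 0.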
